A study of Mus musculus with 4 samples.

Results

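The dentate gyrus of untreated mice was described from the 2 control arrays of a study of antidepressant treatments, 1 hybridized with RNA of sham-treated mice and 1 with RNA of vehicle-treated mice. They were chosen by their labels and are 2 of the 4 arrays of the series. The other 2 arrays held RNA of mice given repeated electroconvulsive stimulation (ECS) or the antidepressant fluoxetine, and they are used here only beside the controls. All mice were C57Bl/6, and no label names a transgene. The study's account gives adult males of the J or the N substrain. It does not say which substrain went into which pool. The sham mice went through 11 sessions with the anaesthesia, isoflurane, and the handling of the ECS mice, but received no shock. The labels place their tissue at 6 h after the last session, whereas the study's methods give the next day. The vehicle mice are labelled as having drunk water for 28 days, as controls for mice that drank fluoxetine, at 22 mg/kg a day. The fluoxetine solution held saccharin, and the labels do not say whether the vehicle did. Fluoxetine mice were selected for weak facilitation at mossy fibre synapses, and no such selection is described for the controls. The dentate gyrus was dissected from hippocampal slices, and the RNA of a group was pooled before 100 ng was amplified and put on 1 Affymetrix mouse 430A 2.0 array. The number of mice in each control pool is not given in the sources used here. With 1 array a group there is no replicate, so no SD, interval or p-value can be given for any difference below. The sham and vehicle pools differ in anaesthesia, handling, drinking regime and experiment at once, and these cannot be told apart.

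The dentate gyrus is the entry station of the hippocampus. Its principal neurons, the granule cells, receive input from the entorhinal cortex and send mossy fibre axons to the CA3 field. They are among the few neurons that are still born in the adult brain, and a granule cell passes from a doublecortin and calretinin stage to a mature stage with calbindin. Interneurons, mossy cells, astrocytes, microglia, oligodendrocytes and vessel cells share the tissue, so the RNA is a mixture. In such a mixture, fewer cells of a type and less RNA per cell cannot be told apart.

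The values are MAS5 signals, in which the authors' software combined the probes of a probe set into 1 linear intensity. The arrays had not been brought to a common level. The median signal over all probe sets was 76.1 on the sham array, 104.2 on the vehicle array, 71.3 on the ECS array and 114.5 on the fluoxetine array. A probe set was kept when its mean signal over the 4 arrays was at least 50, which left 13422 of 22626 probe sets other than control probe sets. Over these the vehicle array was 1.42 times as bright as the sham array at the median, a log2 ratio of sham to vehicle of -0.50. Every ratio below was centred by subtracting this median, so a value of 0 stands for the typical probe set, and only differences relative to it can be read. Spiked control RNAs added before hybridization gave centred log2 ratios from -0.18 to 0.05 over their 9 probe sets, 7 of which were below 0. The 3′ to 5′ signal ratio of the actin probe sets, a measure of RNA length, was 1.59 for sham and 1.53 for vehicle, and that of Gapdh was 0.758 and 0.769. Xist was below 31 on every array and the Y-linked genes Eif2s3y, Kdm5d and Uty were measured, as in male tissue.

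The probe sets with the highest signals were largely the same in both pools. Of the 100 highest on each array, 87 were shared, and 72 of these were also among the 100 highest of both the ECS and the fluoxetine array. The 87 shared probe sets included 54 with 1 gene name, which stand for 44 genes, 24 with several names and 9 with none. At least 1 ribosomal protein gene was among the names of 25 of them. No probe set that was among the highest on one control array ranked lower than 173 on the other. Probes differ in how strongly they bind, so the order of signals is not an order of transcript numbers.

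At the head of both arrays stood ND5, the mitochondrially encoded subunit of respiratory complex I, with 12017 on the sham and 15361 on the vehicle array. Energy use was further represented by Atp1b1, the beta subunit of the sodium pump, at 9793 and 13188, and by the respiratory chain genes Cox6a1 and Uqcrb. Translation was represented by 7 named ribosomal protein genes, among them Rps29 at 10235 and 14205, and by the elongation factor Eef1a1 at 9886 and 12984. Fth1, the heavy chain of the iron store ferritin, had 10005 and 13283. Malat1, a nuclear long noncoding RNA, had 10348 and 11329, and ranked 2 on the sham and 15 on the vehicle array. Its centred log2 ratio of 0.37 was the highest among the 25 leading genes.

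Other leading genes included several known from neurons. Gpm6a, a neuronal membrane glycoprotein, had signals of 9682 and 12692. Ncdn, which encodes neurochondrin, had 9885 and 12410. Ppp3ca, the catalytic subunit of the calcium-dependent phosphatase calcineurin, had 8180 and 11712. Snap25, a SNARE protein of vesicle release, had 7649 and 10853, a centred log2 ratio of 0.00. Cpe, which trims neuropeptide precursors, had 7969 and 10581. The cytoskeleton gave 6 genes, including Actb at 8328 and 9920 and the actin-binding Tmsb4x at 9502 and 12234. Glial products were also present, with Mbp of myelin and Sparcl1 of astrocytes among the 44 genes. After centring, the 87 probe sets had ratios from -0.10 to 0.43 with a median of 0.09, 72 were above 0 and 0 passed 1.5-fold.

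**Figure D1:**
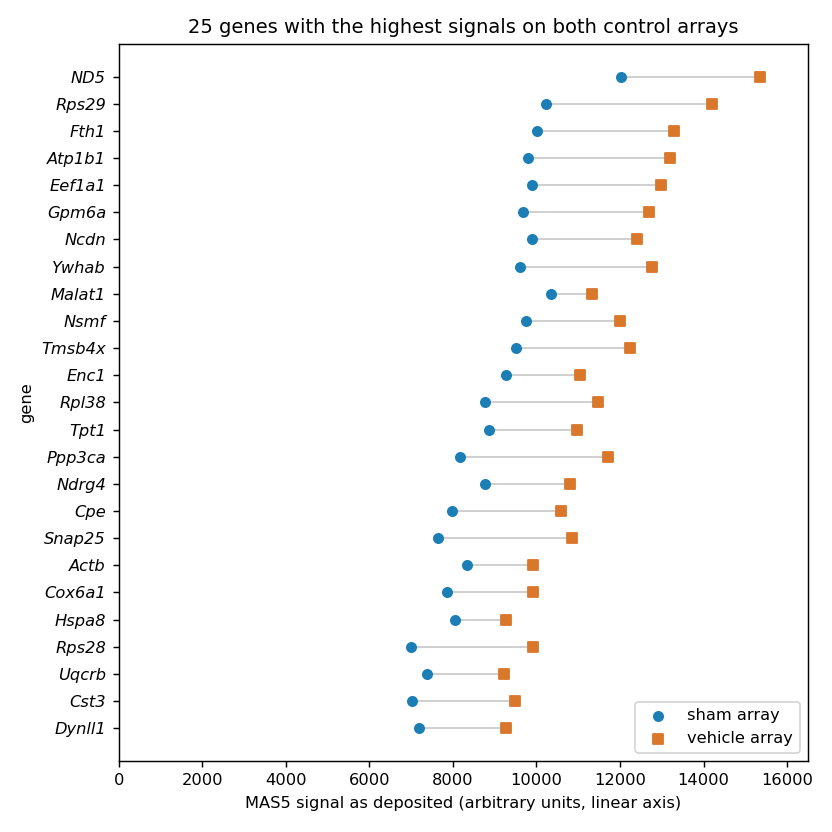
Deposited MAS5 signals (linear axis, arbitrary units) of the 25 genes with the highest mean log2 signal among probe sets in the 100 highest of both control arrays. Circles are the sham array and squares the vehicle array, with 1 array each and no error bars. All 25 genes had the higher signal on the vehicle array, which was also the brighter array at the median.

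Markers of mature granule cells were alike in the 2 pools. Calb1, which encodes the calcium buffer calbindin, had a signal of 3814 in sham and 5396 in vehicle, a centred log2 ratio of 0.00. Tdo2, tryptophan 2,3-dioxygenase, had 564 and 720 (0.15), and Il1r1, the interleukin-1 receptor, had 171 and 260 (-0.10). Dsp, the desmosomal protein desmoplakin, had 1417 and 2557, a centred log2 ratio of -0.35, which was beyond the spread of 0.14 of probe sets of like signal. Here and below, the spread beside a gene is the median absolute deviation, scaled to match an SD, of the centred ratios of the 500 probe sets closest to it in brightness. Prox1, the transcription factor that defines granule cells, had a lower signal of 112 and 155 (0.04). Of 12 measured mature granule cell genes, 0 passed 1.5-fold in either direction and the median was 0.03. Over all 7935 genes measured, each by its brightest probe set, the median was 0.01, 2% were at least 1.5-fold higher and 1.2% at least 1.5-fold lower in sham.

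For immature granule cells and neuroblasts, 13 genes were measured, with a median of 0.08 and 0 past 1.5-fold. Dcx, the doublecortin of migrating neuroblasts, had a signal of 110 and 168 (-0.10). Neurod1, a transcription factor of the granule cell lineage, had 1513 and 2031 (0.08). Calb2, the calretinin of young granule cells and of mossy cells, stood apart from them, with 294 in sham and 282 in vehicle. Its centred log2 ratio was 0.56 at a spread of 0.18, just under 1.5-fold. Of 18 genes of dividing cells on the array only 8 passed the signal filter, and Mki67, the usual proliferation marker, had 20.0 and 17.3. These 8 had a median of -0.17, and 3 were above 0, against 52.5% over all genes. Mcm2 passed 1.5-fold upward (1.68) and Hmgb2 downward (-0.94), against 2% higher and 1.2% lower over all genes.

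Among other cells of the region, astrocyte, microglial, myelin and interneuron genes had similar signals in both pools after centring. The 16 astrocyte genes had a median of -0.04, with Gfap at 127 and 195 (-0.11) and Aqp4 at 1444 and 2245 (-0.13). The 13 microglial genes had a median of -0.09, with Csf1r at 1849 and 2359 (0.15) and Aif1 at 74.9 and 141.8 (-0.42). The 10 myelin genes had a median of -0.12, and Mbp had 6115 and 8196 (0.08). None of these 39 genes passed 1.5-fold, against 2% higher and 1.2% lower over all genes. The 13 interneuron genes had a median of 0.18 and 10 were above 0, against 52.5% over all genes, without any past 1.5-fold. Among them Gad1, the GABA-synthesizing enzyme, had 3712 and 5169 (0.03), Sst, somatostatin, had 835 and 962 (0.30), and Vip had 105 and 109 (0.45). None of 10 endothelial genes passed 1.5-fold. Of 3 mossy cell, 6 oligodendrocyte precursor and 7 pericyte and smooth muscle genes, 1 in each list passed. These were Calcrl at 54.9 and 128.8 (-0.73), Cspg4 at 56.7 and 52.5 (0.61) and Tagln at 48.0 and 41.4 (0.72). Their spreads were 0.33, 0.41 and 0.38. Tagln was below 50 on both control arrays and passed the signal filter only through the fluoxetine array, at 113.2. Its ratio therefore carries little weight, and with signals below 50 taken as 50 it was under 1.5-fold.

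Markers of neighbouring tissue were compared as well. The 4 measured genes of CA1 pyramidal cells had a median of -0.12, and 1, Pou3f1, passed 1.5-fold downward. It had 44.9 and 104.4 (-0.71, at a spread of 0.41), below 50 in sham. Wfs1 had 178 and 263 (-0.06), Man1a had -0.19, and Dcn, also listed for meningeal fibroblasts, had 0.33. The shares past 1.5-fold over all genes were 2% higher and 1.2% lower in sham. The 5 CA3 genes and the 5 CA2 genes had medians of 0.08 and 0.04. Ttr, the transthyretin of the choroid plexus, was at 16.8 and 15.2, and only 2 of 8 choroid plexus genes on the array passed the signal filter. Genes of blood cells were at or below 28.4 on both arrays except Hbb-b2, a haemoglobin chain, at 77.1 and 48.5 (1.17). Of 9 genes of meningeal fibroblasts, 7 were above 0, against 52.5% over all genes, and the median was 0.26. Of these, 1, Col3a1 of collagen at 42.5 and 39.9, just passed 1.5-fold (0.59). Col3a1 passed the signal filter only through the ECS and fluoxetine arrays, and with signals below 50 taken as 50 its ratio was 0.017. Their summed scaled signal was 4335 in sham and 4208 in vehicle, most of it from Ptgds at 2644 and 3838 (-0.03). The part of these markers in the gene differences below was not tested.

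Over all probe sets the 2 pools differed little. The spread of the centred log2 ratio over the 13422 probe sets was 0.20. Past 1.5-fold, 281 of them (2.09%) were higher in sham and 217 (1.62%) were lower. After quantile normalization of the arrays the split turned, to 224 higher and 271 lower, and with scaling by the hybridization controls it was 327 higher and 173 lower, so the balance of directions depended on the scaling. The differences lay among weak signals. Of 2374 probe sets with a mean signal between 50 and 100, 12.3% passed 1.5-fold at a spread of 0.35, against 0.739% of the 2436 probe sets at 1000 and above, where the spread was 0.14. The direction also depended on the signal. Between 50 and 100 there were 185 higher and 107 lower, whereas at 500 and above there were 6 higher and 28 lower.

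**Figure D2:**
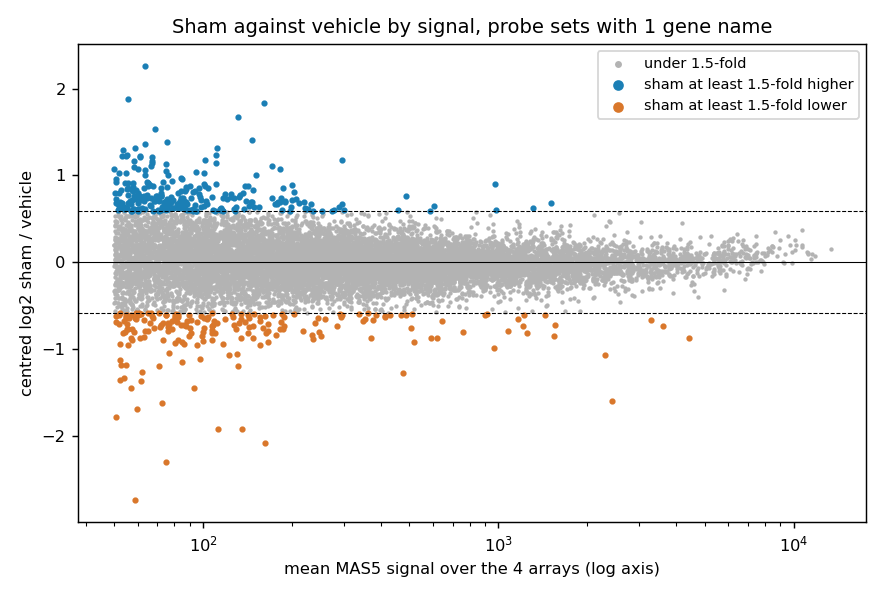
Centred log2 ratio of sham to vehicle against the mean MAS5 signal over the 4 arrays (log axis) for the probe sets past the filter that have 1 gene name, 1 array a side. Dashed lines mark 1.5-fold, blue points are higher and orange points lower in sham, and the coloured points thin out toward high signals.

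The largest increases in sham came from probe sets of low signal. The 15 genes with the largest increases had mean signals from 61.1 to 296. Clcn5, an endosomal chloride transporter, had 215 in sham and 85.3 in vehicle, a centred log2 ratio of 1.84. Mcm2, a subunit of the replicative helicase, had 144 and 64.1 (1.68). Rasd2, a small GTPase also called Rhes, had 118 and 57.9 (1.53). Pold3, an accessory subunit of DNA polymerase delta, had 92.6 and 27.3 (2.27, or 1.14 with signals below 50 taken as 50). The others were Gpank1, Rbms1, Tubb4b, Abcc5, Miip, Rpl37a, Asb6, Shkbp1, Hspb1, Slc6a9 and Nt5c3b, with centred log2 ratios from 1.08 to 1.41.

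Other probe sets of these genes seldom gave the same size. Of the 15 genes, 14 had other measured probe sets, 19 in all, of which 10 were above 0 and 1 passed 1.5-fold upward. That one belonged to Hspb1, a small heat shock protein, with 194 and 168 (0.71) beside 89.0 and 57.3 (1.14). The brighter probe set of Rasd2 had 620 and 657 (0.42), and the second of Mcm2, with 45.1 and 55.9, gave 0.19. For Rpl37a, a ribosomal protein, the named probe set had 343 and 215 (1.18), but others with 4662 and 6657 and with 5762 and 7665 gave -0.01 and 0.09. Tubb4b, a beta tubulin, had 1.24 from the probe set at 140 and 84.1 and -0.03 from that at 1349 and 1951. The second probe set of Pold3 gave -0.06.

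The 15 largest decreases spanned mean signals from 80.5 to 2417. Mapk10, which encodes the neuronal stress kinase JNK3, had 1075 in sham and 4640 in vehicle on a probe set ending in _x_at, a centred log2 ratio of -1.61. Its other probe set had 1249 and 1382, a centred log2 ratio of 0.36. The suffix _x_at marks probe sets in which some probes also match other sequences. Septin7, a filament-forming GTPase, had 1137 and 3394 on an _x_at probe set (-1.07) and 2696 and 3738 on another (0.03). Hnrnpdl, an RNA-binding protein, had 501 and 1414 (-0.99), and its other 5 probe sets gave -0.59, -0.28, -0.25, -0.15 and 0.30. Prss23, a serine protease, had 141 and 484 (-1.27), and -0.26 from a second probe set. Tmem100 had 44.2 and 143.4 (-1.19), and Bag3, a co-chaperone, had 42.0 and 124.9 (-1.07), each from its only measured probe set. The remaining 9 were Glmn, Bptf, 1110008P14Rik, Ighm, Pnn, Lgi4, Mydgf, Son and Hmgb2, from -1.45 to -0.94, and 8 of the 15 were below 50 on a control array. Of 25 other probe sets of 11 of these genes, 15 were below 0 and 1, of Hnrnpdl, passed 1.5-fold downward.

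Agreement between probe sets of a gene was low in general. For 2978 genes with at least 2 measured probe sets, the Spearman coefficient between the 2 brightest was 0.20, across genes, which are not independent replicates. Of 50 genes whose brightest probe set passed 1.5-fold, the second had the same sign in 35 and passed 1.5-fold in the same direction in 5.

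Bright probe sets that differed were mostly lower in sham and often of the _x_at kind. Among the 28 lower probe sets with a mean signal of 500 or more, 11 ended in _x_at, against 11.6% of all 4535 bright probe sets. The genes in this paragraph were chosen after their values were seen, apart from Atp5md. Rad21, a subunit of the cohesin ring, had 911 in sham and 2340 in vehicle (-0.86). Cpeb4, which controls translation of dendritic mRNAs, had 2157 and 4856 (-0.67). Atp5md, a small subunit of the mitochondrial ATP synthase, had 2255 and 5858 (-0.87) and was the only one of 88 respiratory chain and ATP synthase genes past 1.5-fold. Mfsd4a was lower on both of its bright probe sets, at 285 and 766 (-0.92) and at 332 and 864 (-0.88). Klf9, a transcription factor induced by glucocorticoids, had 436 and 1080 on one probe set (-0.81) but 5884 and 8067 on its brightest (0.05). On the other side, Pabpn1, the nuclear poly(A)-binding protein, had 1152 and 877 (0.90), the largest bright increase.

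A gene group shifted more evenly was that of the endoplasmic reticulum stress response. When unfolded proteins collect in the endoplasmic reticulum, cells raise chaperones and folding enzymes through the factors ATF6, XBP1 and ATF4. ATF6 acts with NF-Y at the endoplasmic reticulum stress response element, which is CCAAT and CCACG with 9 bases between them. Promoter windows from RefSeq (mouse assembly GRCm38.p6, 250 bases before to 50 after each start) were searched for it on both strands. It was found in 39 of 32851 windows, or 0.119%, which stand for 37 of 27025 genes. Of the 16 list genes that have a window, 5 held the element. Their elements are shown, with 25 bases on either side, because these are the list genes whose promoters hold it. Each is written 5′ to 3′ on the strand of the gene, with the element in capitals, and it reads CGTGG first where it lies in the opposite orientation.
Hspa5, chr2:34772000-34772068, plus strand: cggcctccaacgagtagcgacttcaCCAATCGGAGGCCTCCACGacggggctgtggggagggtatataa
Calr, chr8:84847050-84847118, minus strand: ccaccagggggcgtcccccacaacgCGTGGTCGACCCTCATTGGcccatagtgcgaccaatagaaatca
Hsp90b1, chr10:86705613-86705681, minus strand: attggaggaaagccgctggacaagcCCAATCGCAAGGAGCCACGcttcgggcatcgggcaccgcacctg
Hsp90b1, chr10:86705508-86705576, minus strand: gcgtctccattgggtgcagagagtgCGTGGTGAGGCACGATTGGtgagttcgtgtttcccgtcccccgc
Pdia6, chr12:17266466-17266534, plus strand: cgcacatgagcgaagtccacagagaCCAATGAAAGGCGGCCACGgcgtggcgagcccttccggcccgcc
Creld2, chr15:88819495-88819563, plus strand: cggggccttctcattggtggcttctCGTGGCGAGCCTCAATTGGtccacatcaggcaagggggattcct

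The 5 genes with these elements were all above 0. Hspa5, the chaperone BiP, had signals of 2193 in sham and 2100 in vehicle, a centred log2 ratio of 0.57 at a spread of 0.14, and its second probe set gave 0.46. Calr, the calcium-binding chaperone calreticulin, had 2072 and 2132 (0.46), and its other 2 probe sets gave 0.60 and 0.44. Pdia6, a protein disulfide isomerase, had 489 and 497 (0.48 at a spread of 0.19). Creld2 had 158 and 164 (0.45), and Hsp90b1, the HSP90 of the endoplasmic reticulum, had 2083 and 2563 (0.20). For the first 4 of these, the deposited signals of sham and vehicle were close, while the vehicle array was 1.42 times as bright at the median.

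Of the 16 list genes measured, 13 were above 0, 1 passed 1.5-fold upward and 0 downward, with a median of 0.28, against 0.01 and 52.5% above 0 over all genes. The 1 past the rule was Sdf2l1, a partner of BiP, with 207 and 194 (0.60). Xbp1, the transcription factor that is spliced in this response, had 2085 and 2129 (0.47). Pdia4 had 150 and 163 (0.38) and Manf, a secreted protein of the response, had 655 and 752 (0.31). The 3 genes not above 0 were Atf4, at 691 and 1048 (-0.10), its target Ddit3, at 211 and 320 (-0.09), and Dnajb9 (-0.04), each within its spread, while Chac1, another target of ATF4, had 0.22 at a spread of 0.36. The lists were chosen with earlier results of these data known, so a rank among them is only a description. The median of this list was the highest of the 34 lists with at least 5 measured genes, whose medians ran from -0.18 to 0.28. It was between 0.23 and 0.31 under 11 of the 12 other settings, and -0.22 with the signals as deposited, uncentred. Outside the list, 8 other measured genes hold the element, of which 6 were above 0 with a median of 0.12. A match of letters is a description of the window and does not show that the element was in use.

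**Figure D3:**
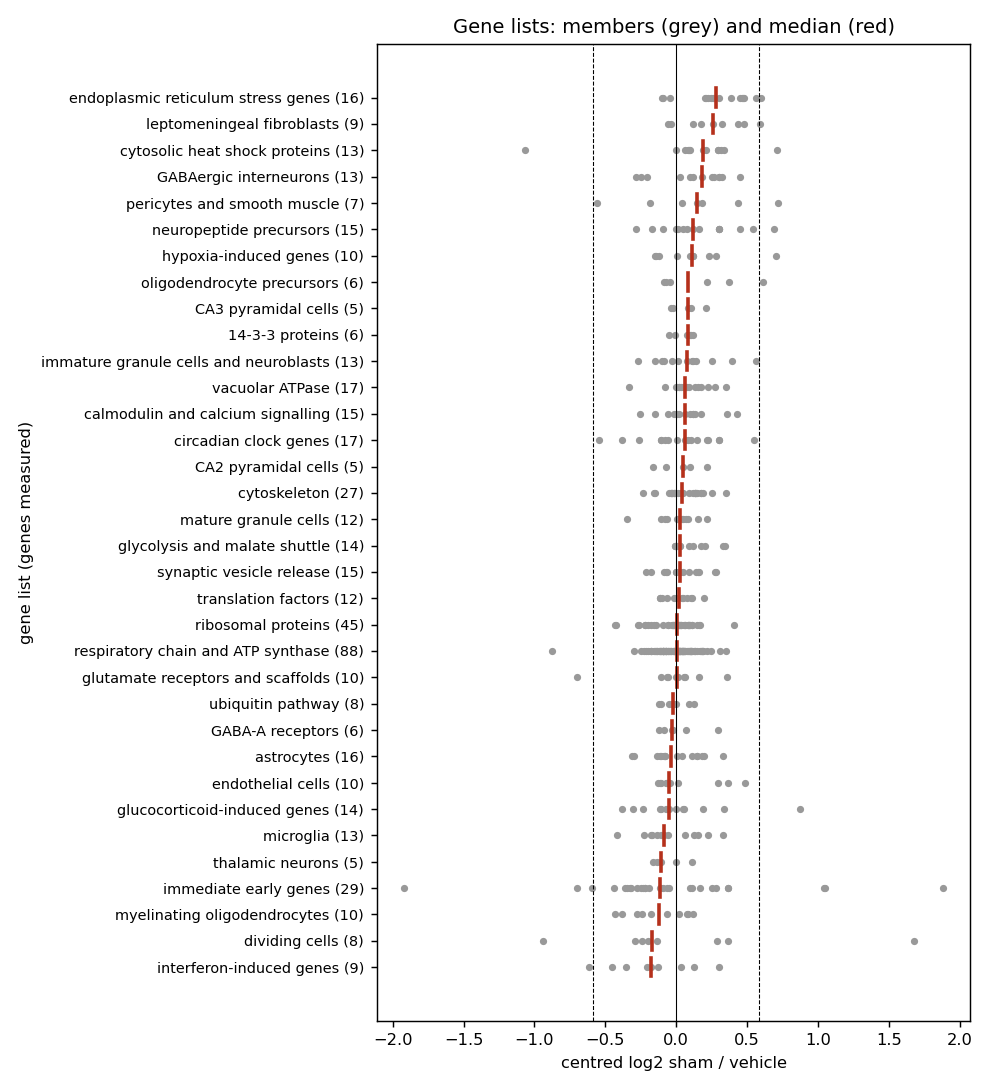
Centred log2 ratio of sham to vehicle for the 34 gene lists with at least 5 measured genes, with the number measured in parentheses. Each grey point is a gene by its brightest probe set, red bars are list medians and dashed lines mark 1.5-fold. Most points lie within the dashed lines, and the medians run from -0.18 for interferon-induced genes to 0.28 for endoplasmic reticulum stress genes.

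Cytosolic heat shock proteins were also mostly above 0, in 12 of 13 genes, with a median of 0.19, against 52.5% above 0 over all genes. One of the 12, Hspe1, was at 0.00. Lists of other kinds were mostly above 0 too, with smaller medians. Above 0 were 14 of 17 vacuolar ATPase genes (median 0.06) and 11 of 14 genes of glycolysis and the malate shuttle (median 0.03). Hspa8, the constitutive HSP70, had 8041 and 9277 (0.30). Hspa1a and Hspa1b, the inducible HSP70 genes, had 182 and 204 (0.34) and 485 and 551 (0.32). These genes are nearly identical, and their probe sets may share signal. Hspb1 passed 1.5-fold upward and Bag3 downward.

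Immediate early genes are those that neurons switch on within minutes of strong activity. Of 29 measured, 10 were above 0, against 52.5% over all genes, and the median was -0.11. In each direction 3 passed 1.5-fold, against 2% higher and 1.2% lower over all genes. Fos had 118 in sham and 198 in vehicle (-0.23), Arc had 72.5 and 124.6 (-0.28), Egr1 had 715 and 1095 (-0.11) and Bdnf had 736 and 1215 (-0.22). The 3 genes higher in sham were Atf3 at 15.9 and 6.1 (1.89), Klf2 at 89.5 and 61.3 (1.05) and Egr4 at 61.9 and 42.6 (1.04). The 3 lower were Fosb at 5.4 and 29.0 (-1.92), Homer1 at 34.7 and 79.8 (-0.70) and Inhba at 78.8 and 168.8 (-0.60). Of these 6 genes only Klf2 and Inhba had more than 50 on both control arrays. Atf3 and Fosb were below 50 on both and passed the signal filter only through the ECS and fluoxetine arrays, so their ratios carry little weight. With signals below 50 taken as 50, Atf3 and Fosb came to 0, Egr4 to 0.56 and Homer1 to -0.42, all under 1.5-fold. Homer1 was taken by the brighter of 2 measured probe sets, which had 31.7 on the ECS array. The study lists another Homer1 probe set among those raised by ECS.

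Stress and timing genes were examined because the sham mice were anaesthetized and handled. Over all genes, 2% were at least 1.5-fold higher and 1.2% at least 1.5-fold lower in sham. Of 14 glucocorticoid-induced genes 1 passed 1.5-fold, Cdkn1a, the cell cycle inhibitor p21, with 74.6 and 57.7 (0.87). Fkbp5, a co-chaperone of the glucocorticoid receptor, had 425 and 653 (-0.11), and Sgk1, a kinase, had 709 and 1310 (-0.38 at a spread of 0.15). None of 17 clock genes passed 1.5-fold. The largest were Per2, at 149 and 145 (0.55), and Dbp, a clock output transcription factor, at 613 and 1267 (-0.54 at a spread of 0.14), while Arntl had 229 and 349 (-0.10). Cirbp, an RNA-binding protein induced by mild cold, had 428 and 840 (-0.47 at a spread of 0.17). Of 16 genes of cytokines and the injury response only 3 passed the signal filter.

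Genes of synaptic transmission had similar levels in both pools. None of 15 vesicle release genes and none of 6 GABA-A receptor genes passed 1.5-fold, with medians of 0.03 and -0.03. The shares past 1.5-fold over all genes were 2% higher and 1.2% lower in sham. Gria1 and Gria2, AMPA receptor subunits, had 3184 and 4477 (0.01) and 4280 and 5823 (0.06). Among 10 glutamate receptor and scaffold genes only Homer1 passed, on the probe set described above, which was below 50 in sham. Of 15 neuropeptide precursors, 11 were above 0, against 52.5% over all genes. Npy, Sst, Vip, Cck and Tac1 are also in the interneuron list, so these lists overlap. Of the 15 precursors 1, Adcyap1, which encodes PACAP, passed 1.5-fold at 78.5 and 68.9 (0.69). Grp, the gastrin-releasing peptide, had 374 and 363 (0.54), and Npy, neuropeptide Y, had 757 and 870 (0.30). The spread for Grp, 0.13, belongs to its mean signal of 2107, set mostly by ECS at 2748 and fluoxetine at 4942. In the class of mean signals from 200 to 500, where its control signals lie, the spread was 0.19. Htr1a, the serotonin 1A receptor, had 191 and 199 (0.44). The 45 ribosomal protein genes had a median of 0.00 with 0 past 1.5-fold.

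The ratio of ECS to fluoxetine was set beside that of sham to vehicle because it shares no array with it, while the first array of each ratio comes from the ECS experiment and the second from the fluoxetine experiment. Centred in the same way, 538 probe sets (4.01%) were higher and 579 (4.31%) lower in ECS than in fluoxetine. Across the 13422 probe sets the Spearman coefficient of the 2 ratios was 0.34. It was 0.24 at mean signals of 50 to 100 and 0.57 at 1000 and above. Of the 143 probe sets past 1.5-fold in both ratios, 121, or 84.6%, had the same sign. Of the 281 higher in sham, 24.6% were also higher in ECS and 10 were lower, and of the 217 lower in sham, 24.0% were also lower in ECS and 12 were higher. Of the 28 bright probe sets lower in sham, 27 were below 0 in ECS over fluoxetine, and of the 6 bright ones higher in sham, 3 were above 0.

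**Figure D4:**
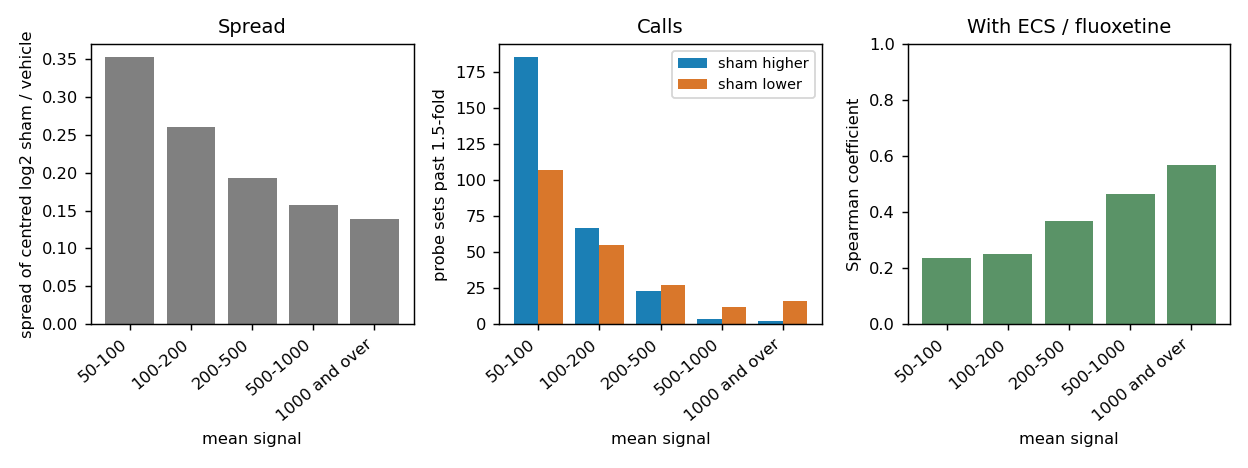
Classes of mean signal over the 4 arrays, with the spread of centred log2 sham over vehicle (left), the probe sets past 1.5-fold in each direction (middle) and the Spearman coefficient of that ratio with ECS over fluoxetine (right). The spread falls from 0.35 to 0.14 and the coefficient rises from 0.24 to 0.57 from the weakest to the brightest class.

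Of the 15 largest increases in sham, 13 were above 0 in ECS over fluoxetine and 9 passed 1.5-fold there, and of the 15 largest decreases, 14 were below 0 and 4 passed. Mcm2 had 1.49 and Rasd2 1.92, the latter with a signal of 29.9 on the fluoxetine array. Their other probe sets gave 0.24 and 0.20 in ECS over fluoxetine. Pold3 had only 0.13, and Rbms1 (-0.43), Abcc5 (-0.15) and Glmn (0.45) had the opposite sign. Hspa5 had 1.02, Sdf2l1 1.15, Pdia6 0.57 and Calr 0.55 in ECS over fluoxetine, and the endoplasmic reticulum list had a median of 0.34 there. On the ECS and sham arrays, the deposited signals were 3281 and 2193 for Hspa5 and 312 and 207 for Sdf2l1. For Calr they were 2513 and 2072, and for Pdia6 479 and 489. Septin7 had -0.95 on its _x_at probe set and -0.07 on the other, as in sham over vehicle, while Rad21 had -0.93 and Cpeb4 -0.61. Mapk10 had -0.24. The likeness was closer within a probe set than within a gene. For 424 genes with 2 probe sets at 1000 or more, the brightest probe set correlated at 0.59 with itself in the other pair of arrays, but at 0.31 with the second probe set of the same gene on the same arrays. The immediate early genes differed, with a median of 1.33 in ECS over fluoxetine beside -0.11 in sham over vehicle. Among them Atf3, Egr2 and Fosb were below 50 on both control arrays. They passed the signal filter only through the ECS and fluoxetine arrays, whose signals also enter the median of 1.33. That median is therefore not independent of the filter, and it was not computed without these genes. Both ratios set the ECS experiment against the fluoxetine experiment. Anything that differed between the experiments, in mice, dissection, RNA or array run, cannot be told apart here. The ratio of ECS to fluoxetine also holds the 2 treatments, which cannot be told apart from the experiments in it.

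**Figure D5:**
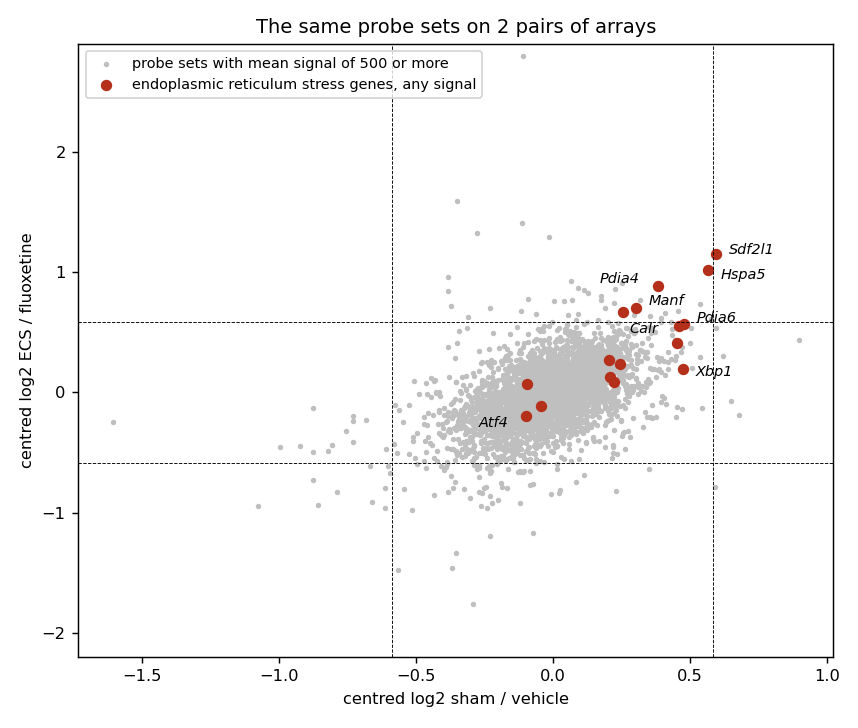
Centred log2 ratio of ECS to fluoxetine against that of sham to vehicle for probe sets with 1 gene name and a mean signal of 500 or more (grey) and for the 16 measured endoplasmic reticulum stress genes at any signal (red). Dashed lines mark 1.5-fold, and 2 grey points lie outside the axes. The cloud is tilted upward to the right, and 13 of the 16 red points lie above 0 on the horizontal axis.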

How the data were processed

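Total RNA of dissected dentate gyrus was pooled by group and measured on 4 arrays, 1 for each of sham, ECS, vehicle and fluoxetine. The deposited values are linear signal intensities that the authors computed with Affymetrix MAS5, not scaled between arrays. Detection calls were not used here. Groups came from the labels. Signals of 64 control probe sets were left out, and log2 ratios were centred on their median over the 13422 probe sets whose signals averaged 50 or more across the 4 arrays, the study's filter. This assumes that the typical probe set did not differ. A call was at least 1.5-fold. No test was possible with 1 array a group, and the number of arrays limits the precision.

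Names came from the platform annotation (1 gene for 12431 probe sets, several for 426, none for 565), and a gene was taken by its brightest probe set. Named by rule were the 25 highest signals shared by both controls, the 15 largest differences each way ranked with signals below 50 taken as 50, the members of each of 44 gene lists with the largest ratios (4 at most), the members that define a cell type and the study's 4 granule cell markers. Other list members, and genes of bright probe sets so marked, were chosen after their values were seen. The members and lists were chosen with earlier results of these data known. Python 3.11.15, numpy 2.4.6 and pandas 2.3.3 were used, and the steps were tested on simulated data. Alternatives concerned the filter, the scaling, low signals, ambiguous probe sets and the size rule.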

Additional observations from a re-analysis of the deposited data

Results flagged for a closer look

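The ratio of sham to vehicle and that of ECS to fluoxetine went past 1.5-fold in opposite directions for 2 named genes. Fosb, an AP-1 transcription factor, had signals of 5.4 in sham and 29.0 in vehicle, a centred log2 ratio of -1.92, but 379.8 in ECS and 129.0 in fluoxetine, a ratio of 2.27. Tagln, the transgelin of smooth muscle, had 48.0 and 41.4, a centred log2 ratio of 0.72, but 38.6 and 113.2, a ratio of -0.84. Both genes were below 50 on both control arrays. With 1 array a group the difference between the 2 ratios was not tested.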

How the results depend on the processing

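Against 281 probe sets higher and 217 lower in sham, there were 432 and 338 when 1 array at 50 sufficed, 3250 and 2143 without a filter, 33 and 51 at a mean of at least 200, 163 and 134 with a pseudocount of 16, 1656 and 1522 at 1.2-fold, and 43 and 28 at 2-fold. With the signals as deposited, 30 were higher and 4641 lower, since that setting leaves in the difference in brightness. The share of probe sets past the size rule in both ratios with the same sign, 84.6%, was 76.0% when 1 array at 50 sufficed, 60.0% without a filter, 90.2% with signals below 50 taken as 50, 75.0% at 2-fold and 99.4% with the signals as deposited. Without a filter the spread was 0.34 and the Spearman coefficient 0.21. The shared part of the highest signals was 92.0% for the 50 highest and 91.0% for the 200 highest. With signals below 50 taken as 50, Fosb and Atf3 came to 0 and Tagln to 0.19. Son turned to 0.033 as the mean of its probe sets. No paired analysis was possible because each group has 1 array, and for the same reason none could be left out. Weak signals set the limit, since most calls lie below a mean of 200.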
